A study of Mus musculus with 10 samples.

Results

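Astrocytes are the glial cells that take up neurotransmitters, carry water and ions, supply lipids to neurons and are coupled to each other by gap junctions. Radial glia are the stem cells of the developing brain, and the neural stem cells (NSCs) of the adult subependymal zone (SEZ) descend from them and keep a glial character, so that many genes used as astrocyte markers are also active in NSCs. Gfap and Aqp4 are typical of mature astrocytes, Nes, Vim and Fabp7 of radial glia and progenitors, and Slc1a3 (GLAST) and Gja1 of both. The genes described here are 41 such astrocyte and radial glia genes, chosen by name, all of which were found by their Ensembl identifiers among the 48795 genes of the count file. A total of 40 passed the filter on low counts (below) and were tested together with the rest of the 12859 genes that passed it. The exception was Gjb6 (connexin 30), with 0 counts in all 5 neurosphere libraries and 2 to 10 counts in the libraries of differentiating cells.

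Gene expression was measured by RNA-seq in NSC and progenitor cell (NSC/NPC) cultures from the SEZ of mice aged 10 weeks. Neurospheres (PRO), the floating clusters in which these cells divide, were grown for 3 days with EGF at 20 ng/ml and FGF at 10 ng/ml. Differentiating cultures (DIFF, 2 + 1 DIV) were seeded at 40000 cells per cm2 on Matrigel with FGF for 2 days, then lost the mitogens and received 2% fetal bovine serum for 24 h. Each stage had 3 wild-type (WT) libraries and 2 labelled p27KO, that is, from mice mutant for Cdkn1b, which encodes the cell cycle inhibitor p27. The stages differed at once in mitogens, attachment, coating and serum, and the effects of these cannot be told apart. The labels call the replicates biological without saying whether each came from a separate animal.

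Total counts ranged from 19190068 to 25291674 per library, and no library stood apart in its total or its scaling. The libraries labelled p27KO kept Cdkn1b counts, at 90.7 to 113.8 CPM (counts scaled to a library total of 1000000) in neurospheres, where WT had 102.7 to 112.5, and at 137.2 to 140.2 CPM in differentiating cells, where WT had 205.2 to 208.6. The part of the gene that the allele removes is not given in the sources used here, so that these counts do not check the label, and the free-text descriptions of the same samples name WT cells. The female transcript Xist had a mean of 1.49 CPM in WT neurospheres and 2287 CPM in those labelled p27KO, so that genotype and sex cannot be told apart in any comparison of the genotypes.

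The members made up 1.27% ± 0.0397 (SD, n = 3) of all counts in WT neurospheres and 2.73% ± 0.0734 (SD, n = 3) in WT differentiating cells. The corresponding shares in the libraries labelled p27KO were 1.25% ± 0.0933 (SD, n = 2) and 2.63% ± 0.0573 (SD, n = 2). In each genotype, the lowest share at 2 + 1 DIV was above the highest share in neurospheres. In bulk samples such as these, more cells of one type and more RNA per cell cannot be told apart.

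In WT cells, 29 of the 40 members tested rose from neurospheres to 2 + 1 DIV and 3 fell, while 8 did not pass the test (edgeR's quasi-likelihood test, two-sided, adjusted by Benjamini-Hochberg over all genes tested, threshold 0.05). Across all genes tested, 33.5% rose and 33.9% fell. The median log2 fold change of the members was 1.91, against -0.00 for all genes. In the libraries labelled p27KO, 27 members rose, 3 fell and 10 did not pass, where 27.5% of all genes rose and 30.2% fell. The median there was 1.65 for the members and -0.03 for all genes. A total of 26 members rose in both genotypes, and the same 3, Nes, Vim and Acsbg1, fell in both. The fitted change had the same sign in both genotypes for 40 of 40 members, against 92.2% of all genes tested. The levels of the groups did not overlap for 32 higher and 3 lower members in WT (36.3% and 35.6% of all genes), and for 31 higher and 6 lower members in the libraries labelled p27KO (40.0% and 39.8% of all genes).

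**Figure D1:**
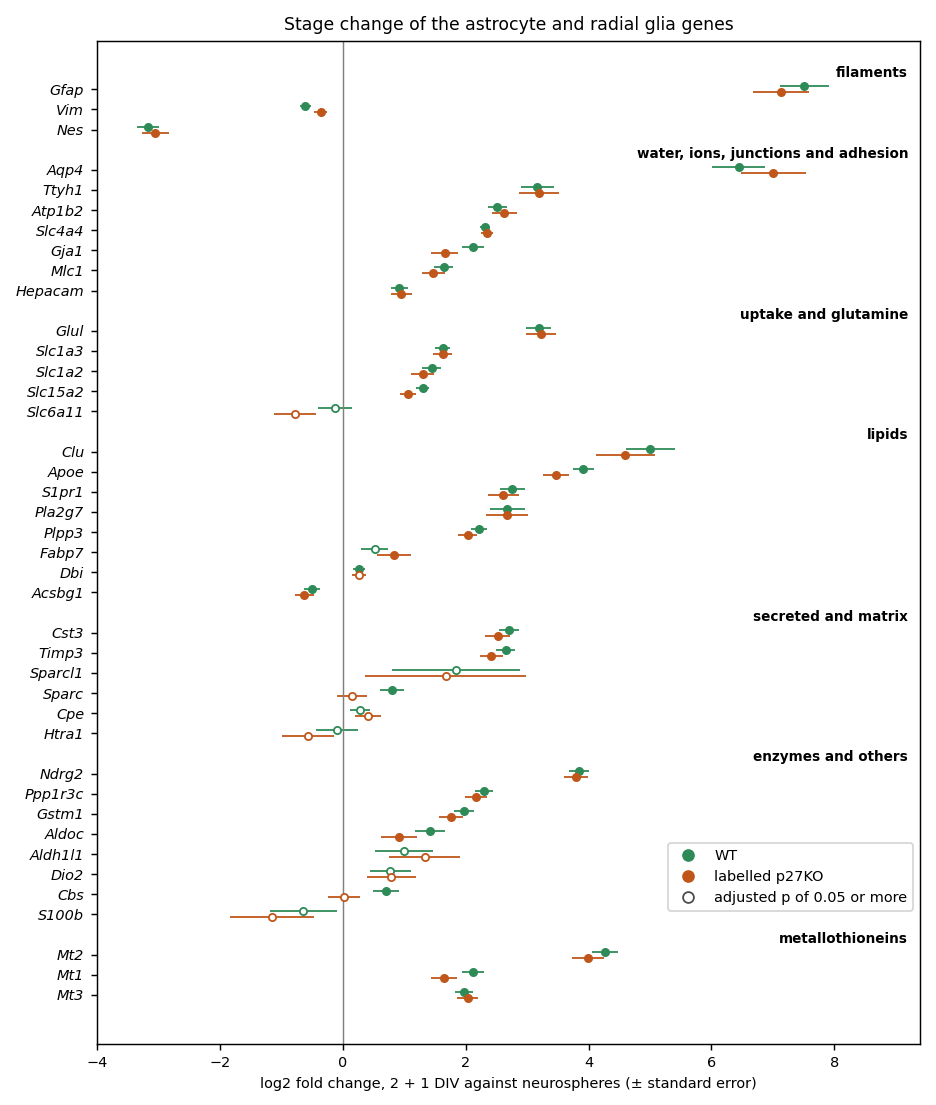
Log2 fold change from neurospheres to 2 + 1 DIV (horizontal axis, with its SE as defined below) of the 40 members tested. The members are grouped by role and ordered within each role by the change in WT. Green points are WT and orange points are the libraries labelled p27KO; filled points passed the adjusted p threshold of 0.05 and open points did not. Gfap and Aqp4 lie farthest to the right, at 7.51 and 6.44 in WT, and Nes farthest to the left, at -3.16.

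The intermediate filament genes moved in opposite directions. Gfap, the filament protein of mature astrocytes (chromosome 11, 102887336-102900912, minus strand, GRCm38), was near absent from neurospheres, at 0.625, 0.199 and 1.01 CPM in WT and, in p27KO, 1.53 and 0.689 CPM. These levels rest on 5 to 37 counts per library. At 2 + 1 DIV, Gfap stood at 94.3, 90.9 and 146.4 CPM in WT and, in p27KO, at 144.5 and 179.7 CPM. Every differentiating library was thus far above every neurosphere library. The fitted log2 fold change was 7.51 (SE 0.40, a 182.5-fold rise, adjusted p = 5.3e-07) in WT and 7.13 (SE 0.46, adjusted p = 4.35e-06) in p27KO. Gfap had at least 1 CPM in only 2 of the 5 neurosphere libraries, and in all 5 differentiating ones.

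Nes, which encodes nestin, the filament protein of neural progenitors, fell. Its levels were 1669, 2012 and 1515 CPM in WT neurospheres and 237.8, 190.5 and 156.4 CPM in WT differentiating cells. In the libraries labelled p27KO they were 1476 and 1735 CPM, then 180.0 and 216.3 CPM. The stages did not overlap in either genotype, and the log2 fold change was -3.16 (SE 0.18, adjusted p = 4.22e-07) in WT and -3.05 (SE 0.22, adjusted p = 5.07e-06) in p27KO. Vim (vimentin), which radial glia, progenitors and immature astrocytes share, fell far less. It went from 2490, 2797 and 2684 CPM to 1678, 1810 and 1788 CPM in WT, and from 2374 and 2509 to 1974 and 1906 CPM in p27KO. Neither genotype had overlapping stages, with log2 fold changes of -0.60 (SE 0.08, adjusted p = 0.00014) and -0.36 (SE 0.10, adjusted p = 0.0137). The fall in p27KO did not pass without p27KO DIFF replicate 2 (-0.32, adjusted p = 0.0884) or without p27KO PRO replicate 2 (-0.30, adjusted p = 0.0683). Here and wherever a p27KO library is left out, 1 library remains in that group, which is assumed to vary like the other groups.

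Levels of different genes were compared per kilobase of exon (CPM per kb). Fabp7, Dbi, Vim and Nes held the first 4 places among the members in WT neurospheres, at 1320, 649.8, 560.1 and 269.9 CPM per kb, while Gfap was last of the 40, at 0.145 CPM per kb. In WT differentiating cells, Fabp7 (1910 CPM per kb) was followed by Apoe (907.4), Dbi (788.7), Glul (668.9) and Mt2 (585.9). The SDs of Fabp7 and Apoe there were 557.6 and 190.1 CPM per kb, and those of Dbi, Glul and Mt2 62.6, 153.5 and 96.9, so that Apoe, Dbi and Glul did not stand apart beyond their spread. Even after its rise, Gfap held only place 35, at 26.2 CPM per kb, just below Nes at 30.4 CPM per kb in place 34, and these did not differ beyond their SDs of 7.37 and 6.37.

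**Figure D2:**
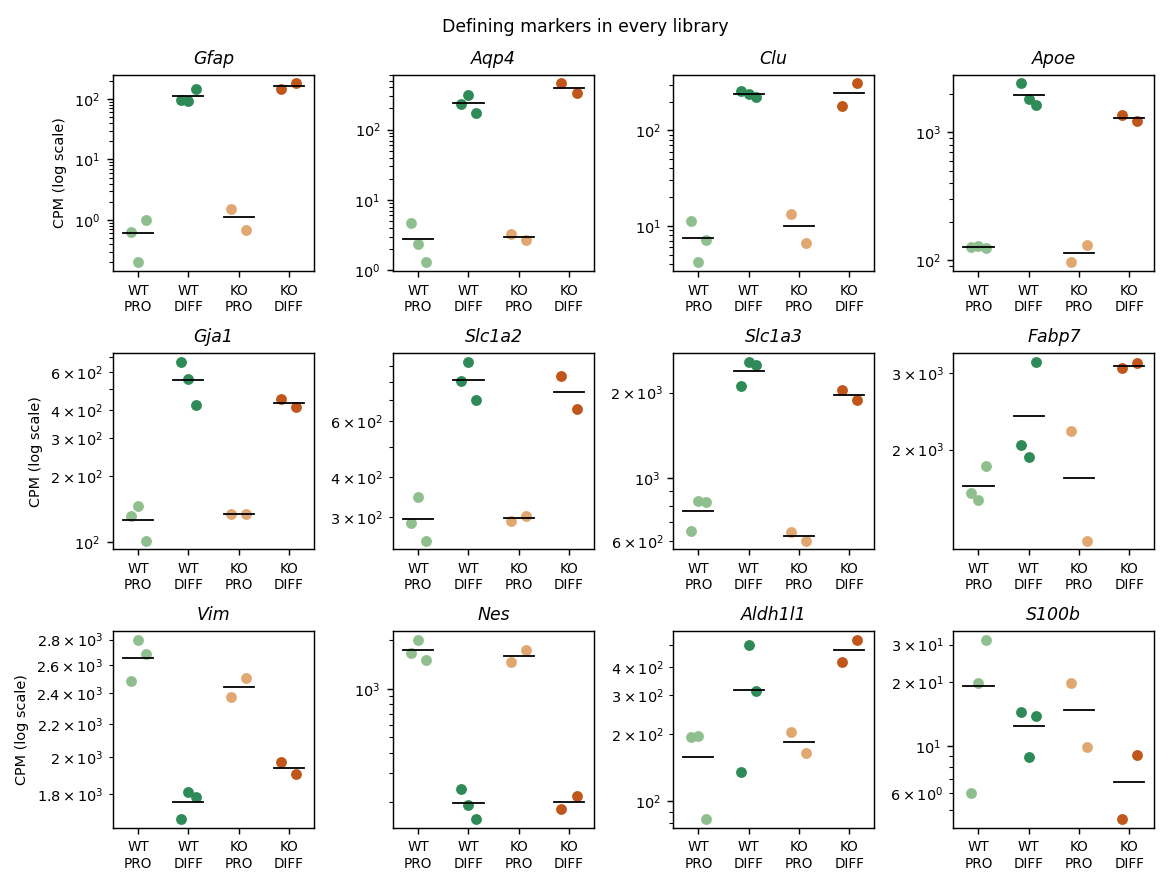
Level of 12 defining markers in every library, in CPM on a log scale, for WT and p27KO (KO) neurospheres (PRO) and differentiating cells (DIFF). Each point is a library and each bar the group mean; the axes differ between genes. Gfap, Aqp4, Clu and Apoe show no overlap between stages, whereas the points of Aldh1l1 and S100b overlap between the WT stages.

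All 7 tested genes for water, ion and cell contact proteins rose in both genotypes. Aqp4, the water channel of astrocyte endfeet (chromosome 18, minus strand), was at 4.69, 2.35 and 1.29 CPM in WT neurospheres and at 232.0, 310.5 and 170.9 CPM at 2 + 1 DIV. In the libraries labelled p27KO it went from 3.26 and 2.71 CPM to 454.0 and 328.5 CPM. No stages overlapped, and the log2 fold change was 6.44 (SE 0.43, adjusted p = 2.46e-06) in WT and 7.00 (SE 0.53, adjusted p = 1.24e-05) in p27KO. Gja1, the astrocyte gap junction protein connexin 43, rose from 131.4, 145.4 and 101.5 CPM to 668.7, 556.3 and 424.6 CPM in WT, and from 134.8 and 134.5 to 449.8 and 414.0 CPM in p27KO, again without overlap. Its log2 fold change was 2.12 (SE 0.18, adjusted p = 5.03e-06) in WT and 1.66 (SE 0.21, adjusted p = 0.000149) in p27KO. The other 5 had changes in WT between 0.92 (Hepacam, SE 0.14, an adhesion protein) and 3.16 (Ttyh1, SE 0.27, an anion channel family member). Among these, Slc4a4, a sodium bicarbonate cotransporter, had the most precise value, 2.32 (SE 0.08) in WT and 2.35 (SE 0.10) in p27KO. Atp1b2, a subunit of the sodium pump, rose by 2.52 (SE 0.16) in WT and 2.63 (SE 0.20) in p27KO. Mlc1, which forms a membrane complex with Hepacam, rose by 1.65 (SE 0.16) and 1.48 (SE 0.19).

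Of the 5 genes for transporters and glutamine synthesis, 4 rose in both genotypes. Glul encodes glutamine synthetase, which turns glutamate into glutamine in astrocytes. It went from 240.9, 213.9 and 272.0 CPM to 1653, 2637 and 2379 CPM in WT, and from 314.5 and 247.3 to 2933 and 2420 CPM in p27KO. The stages were well apart, with log2 fold changes of 3.19 (SE 0.20, adjusted p = 7.93e-07) and 3.23 (SE 0.24, adjusted p = 7.07e-06). Both glutamate transporter genes rose from levels that were already substantial in neurospheres. Slc1a3 (GLAST) went from 650.0, 831.0 and 822.0 CPM to 2103, 2567 and 2489 CPM in WT, and from 647.8 and 603.5 to 2049 and 1884 CPM in p27KO. Slc1a2 (GLT-1) went from 286.1, 346.5 and 252.7 CPM to 807.1, 925.9 and 700.3 CPM in WT, and from 291.5 and 303.0 to 834.8 and 655.4 CPM in p27KO. Neither gene had overlapping stages. The log2 fold changes of Slc1a3 were 1.63 (SE 0.12) and 1.63 (SE 0.15), and those of Slc1a2 1.45 (SE 0.15) and 1.30 (SE 0.19), in WT and p27KO (adjusted p at most 0.000277). The peptide transporter gene Slc15a2 rose by 1.30 (SE 0.11) and 1.07 (SE 0.13). Slc6a11, the GABA transporter GAT3, did not pass in either genotype, at -0.12 (SE 0.28, adjusted p = 0.717) in WT and -0.77 (SE 0.35, adjusted p = 0.0831) in p27KO. The p27KO value passed by DESeq2 (-0.75, adjusted p = 0.0304), with only the groups compared (-0.74, 0.00837), with the replicate number as a block within genotype (-0.78, 0.0375), with a block in which the p27KO numbers were crossed (-0.78, 0.0125, chosen after seeing the data) and without WT DIFF replicate 1 (-0.74, 0.00669). The block within genotype pairs the p27KO libraries by number too, although same-numbered p27KO libraries did not deviate together (correlation of -0.138). The WT value of Slc6a11 changed sign when single libraries were left out.

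Among the 8 genes of lipid transport, metabolism and signalling, 6 rose and 1 fell in each genotype. Clu (clusterin), a secreted apolipoprotein, went from 11.3, 4.15 and 7.19 CPM to 258.6, 238.5 and 225.4 CPM in WT, and from 13.2 and 6.54 to 181.7 and 309.7 CPM in p27KO. Apoe, the main apolipoprotein of the brain, went from 127.7, 128.6 and 125.7 CPM to 2397, 1805 and 1619 CPM in WT, and from 96.4 and 130.7 to 1352 and 1215 CPM in p27KO. For both, each differentiating library exceeded each neurosphere library by a wide margin. The log2 fold change of Clu was 5.01 (SE 0.40, adjusted p = 7.3e-06) in WT and 4.60 (SE 0.48, adjusted p = 6.48e-05) in p27KO, and that of Apoe 3.92 (SE 0.18, adjusted p = 1.2e-07) and 3.47 (SE 0.21, adjusted p = 2.48e-06). The sphingosine-1-phosphate receptor gene S1pr1 rose by 2.76 (SE 0.21) in WT and 2.61 (SE 0.25) in p27KO. Similar sizes were found for Pla2g7, a secreted phospholipase (2.68, SE 0.28, and 2.68, SE 0.34), and Plpp3, a lipid phosphate phosphatase (2.22, SE 0.13, and 2.03, SE 0.16).

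The fatty acid binding protein gene Fabp7, a marker of radial glia, was the member of highest level per kilobase in all 4 groups. Its levels were higher at 2 + 1 DIV in both genotypes, but its WT change did not pass. It stood at 1586, 1531 and 1835 CPM in WT neurospheres and at 2049, 1924 and 3189 CPM at 2 + 1 DIV, and at 2213 and 1235, then 3089 and 3160 CPM in p27KO. The stages did not overlap in either genotype, but WT DIFF replicate 3 lay far above the other two. The log2 fold change was 0.52 (SE 0.23, adjusted p = 0.0682) in WT and 0.84 (SE 0.28, adjusted p = 0.0277) in p27KO. With the WT replicate numbers as a block within genotype, the WT change passed at 0.49 (SE 0.17, adjusted p = 0.0367). Among other alternatives, it also passed by DESeq2 (0.52, adjusted p = 0.0259) and with only the groups compared (0.52, 0.0461). The p27KO call was lost in 3 of the fits that left a library out, at 0.85 (adjusted p = 0.0803) without p27KO DIFF replicate 1, 0.83 (0.0846) without p27KO DIFF replicate 2 and 0.49 (0.165) without p27KO PRO replicate 2, and without a filter (0.77, 0.116). The difference between the genotypes' changes was 0.32 (95% interval -0.49 to 1.13). Dbi, the acyl-CoA binding protein, rose by 0.27 (SE 0.09, adjusted p = 0.0285) in WT and had 0.27 (SE 0.12, adjusted p = 0.0694) in p27KO. The p27KO value of Dbi passed by DESeq2 (0.29, adjusted p = 0.0258) and without WT DIFF replicate 1 (0.31, 0.0367). Without p27KO PRO replicate 1 it was 0.38. The WT call of Dbi was lost without a filter (adjusted p = 0.21), with genes of at least 1 CPM in at least 4 libraries (0.0562) and without each of WT DIFF replicate 2 (adjusted p = 0.0601), WT DIFF replicate 3 (0.101) and WT PRO replicate 2 (0.11). Acsbg1, an acyl-CoA synthetase of brain glia, fell from 507.8, 416.4 and 367.4 CPM to 306.1, 334.4 and 280.3 CPM in WT and from 409.5 and 401.4 to 281.9 and 253.0 CPM in p27KO. All of its differentiating libraries were below all neurosphere libraries, and its log2 fold change was -0.50 (SE 0.13, adjusted p = 0.00567) in WT and -0.62 (SE 0.15, adjusted p = 0.00632) in p27KO. In p27KO the value without p27KO DIFF replicate 2 was -0.54 and did not pass (adjusted p = 0.0534).

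**Figure D3:**
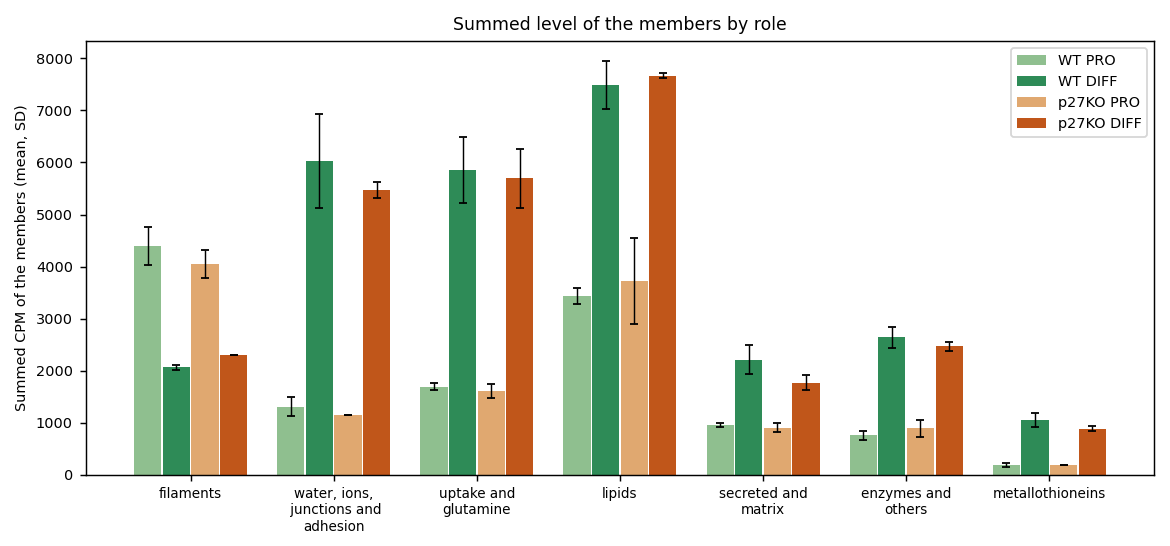
Summed level of the members of each role (CPM, bars show group means and whiskers the SD over 3 WT or 2 p27KO libraries), for neurospheres (PRO) and differentiating cells (DIFF). The filament sum drops from 4389 to 2064 CPM in WT, and the other 6 sums are higher at 2 + 1 DIV in both genotypes.

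The 3 metallothionein genes, which encode small cysteine-rich proteins that bind zinc and copper, rose together. They lie side by side on chromosome 8, plus strand, in the order Mt3 (94152607-94154146), Mt2 (94172664-94173568) and Mt1 (94179082-94180327, all GRCm38). Mt2 went from 23.2, 16.8 and 13.4 CPM to 299.9, 408.7 and 325.0 CPM in WT, and from 16.7 and 19.6 to 295.8 and 290.0 CPM in p27KO. Mt1 went from 100.4, 79.8 and 61.6 CPM to 333.7, 394.1 and 328.4 CPM, and from 73.9 and 91.9 to 273.7 and 254.8 CPM. Mt3, the form best known from brain, went from 104.2, 86.8 and 78.9 CPM to 308.0, 393.0 and 365.0 CPM, and from 87.5 and 70.1 to 345.4 and 310.6 CPM. Every differentiating library was above every neurosphere library for all 3 genes. The log2 fold change of Mt2 was 4.27 (SE 0.22, adjusted p = 2.72e-07) in WT and 3.99 (SE 0.26, adjusted p = 3.81e-06) in p27KO. Mt1 had 2.12 (SE 0.18) and 1.65 (SE 0.22), and Mt3 1.97 (SE 0.14) and 2.03 (SE 0.17). Per kilobase, Mt2 was the lowest of the 3 in WT neurospheres, at 30.3 ± 8.44 CPM per kb (SD, n = 3) against 64.7 ± 15.6 for Mt1 and 84.4 ± 12.1 for Mt3. At 2 + 1 DIV it was the highest, at 585.9 ± 96.9 CPM per kb (SD, n = 3) against 282.6 ± 29.3 for Mt1 and 333.3 ± 40.6 for Mt3. That last order rests on the annotated exon lengths, 588 bases for Mt2, 1246 for Mt1 and 1066 for Mt3. Without division by length, the WT means at 2 + 1 DIV were alike, at 344.5, 352.1 and 355.3 CPM for Mt2, Mt1 and Mt3. Mt1 and Mt2 are close relatives, so that the division of reads between them is uncertain, and an annotated gene on the other strand, Gm45774, overlaps an exon of Mt2.

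The promoters of these 3 genes are shown because the genes neighbour each other and rose together. They follow RefSeq transcript starts, which can differ from the GENCODE positions above. The Mt2 window ends at 94172647, before the GENCODE start of Mt2 at 94172664. Each sequence holds 250 bases before and 30 bases after the RefSeq transcript start (GRCm38.p6, plus strand, 5′ to 3′), and capitals mark matches on either strand to the core of the metal response element, which the zinc-sensing factor MTF1 is known to bind, searched as TGCACNC or TGCGCNC.
Mt1, chr8:94178839-94179118: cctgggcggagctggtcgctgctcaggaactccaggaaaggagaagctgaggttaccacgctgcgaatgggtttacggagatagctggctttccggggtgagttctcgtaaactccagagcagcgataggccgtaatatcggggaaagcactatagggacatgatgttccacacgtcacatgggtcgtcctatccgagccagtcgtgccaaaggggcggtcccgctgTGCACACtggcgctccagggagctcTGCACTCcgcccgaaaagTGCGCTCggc
Mt2, chr8:94172368-94172647: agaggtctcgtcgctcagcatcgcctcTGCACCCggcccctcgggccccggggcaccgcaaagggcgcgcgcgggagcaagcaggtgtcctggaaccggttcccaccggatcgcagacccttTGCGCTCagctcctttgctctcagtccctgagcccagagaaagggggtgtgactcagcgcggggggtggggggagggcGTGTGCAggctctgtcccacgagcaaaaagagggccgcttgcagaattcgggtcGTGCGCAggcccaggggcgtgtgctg
Mt3, chr8:94152357-94152636: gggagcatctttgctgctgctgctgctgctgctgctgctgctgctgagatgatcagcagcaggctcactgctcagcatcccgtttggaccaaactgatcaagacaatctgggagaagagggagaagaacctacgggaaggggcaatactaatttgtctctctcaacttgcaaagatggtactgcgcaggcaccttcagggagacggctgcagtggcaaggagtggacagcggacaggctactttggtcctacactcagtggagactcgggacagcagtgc

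The Mt1 window held 3 matches, the Mt2 window 4 and the Mt3 window 0. Among 32851 listed RefSeq promoters of the same length, 24.1% held at least 1 match, 1.73% at least 3 and 0.405% at least 4. A promoter was listed for 35 of the 41 members, and 10 of these 35 members (28.6%) held at least 1 match. The 35 had 43 listed promoters, and a member counts where any of its promoters holds a match. The shares of all promoters, here and below, count each promoter once, so that they are not on the same footing as the members' shares. The window need not hold the site through which STAT3 acts on Gfap, and binding at the match was not tested. Gfap is shown for the STAT motif TTCNNNGAA, since STAT3 is known to act on this gene. The window is the same, on the minus strand, with the match in capitals, from position -2 to 7 around the RefSeq start. This window lies inside the GENCODE gene, which on the minus strand begins at 102900912, and does not cover that beginning.
Gfap, chr11:102897171-102897450: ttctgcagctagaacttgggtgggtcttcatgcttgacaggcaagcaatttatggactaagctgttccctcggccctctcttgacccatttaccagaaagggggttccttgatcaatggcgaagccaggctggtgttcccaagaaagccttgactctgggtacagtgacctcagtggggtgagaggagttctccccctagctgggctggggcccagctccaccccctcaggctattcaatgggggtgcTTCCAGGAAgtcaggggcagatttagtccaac
The motif stood in the windows of 5 of the 35 members (Acsbg1, Aldoc, Gfap, Pla2g7 and Slc1a3, 14.3%) and of 7.83% of all promoters. The short site TTGGC of the nuclear factor I (NFI) family was found for 19 of 35 members (54.3%) and for 44.7% of all promoters, and the full NFI palindrome for 0 members and 0.0365% of all promoters. The sequences are the same in every library and the matches are letters only.

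Of the 6 genes for secreted and matrix proteins, 3 rose in WT and 2 in p27KO, and the rest did not pass. Cst3 (cystatin C), a protease inhibitor, rose by 2.70 (SE 0.16, adjusted p = 6.21e-07) in WT and 2.52 (SE 0.20, adjusted p = 8.51e-06) in p27KO. Timp3, an inhibitor of matrix metalloproteinases, rose by 2.65 (SE 0.15) and 2.42 (SE 0.19). Sparc, a matrix protein that astrocytes secrete, rose by 0.80 (SE 0.20, adjusted p = 0.00555) in WT and had 0.16 (SE 0.24, adjusted p = 0.605) in p27KO. The difference between the changes in Sparc was -0.64 (95% interval -1.35 to 0.06) and did not pass. Cpe, carboxypeptidase E, had 0.28 (SE 0.17) and 0.41 (SE 0.21), and Htra1, a serine protease, -0.10 (SE 0.34) and -0.56 (SE 0.42). In p27KO, Htra1 passed with only the groups compared (-0.53, adjusted p = 0.0283), with the block as numbered (-0.58, 0.0485) and with the block within genotype (-0.56, 0.0137). Both blocks pair the p27KO libraries by number, although same-numbered p27KO libraries did not deviate together. The p27KO value of Cpe was 0.69 without p27KO DIFF replicate 1.

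Of the 8 genes for enzymes and other proteins, 5 rose in WT and 4 in p27KO. Ndrg2, an astrocyte protein of the NDRG family, went from 56.9, 51.1 and 45.9 CPM to 903.6, 666.9 and 660.1 CPM in WT, and from 45.4 and 34.4 to 557.1 and 572.4 CPM in p27KO. These stages were far apart, with log2 fold changes of 3.85 (SE 0.16, adjusted p = 8.36e-08) and 3.80 (SE 0.19, adjusted p = 1.31e-06). Ppp1r3c, a glycogen-targeting phosphatase subunit, rose by 2.30 (SE 0.14) and 2.17 (SE 0.18), and the glutathione transferase gene Gstm1 by 1.98 (SE 0.16) and 1.76 (SE 0.20). Gstm1 has close relatives that can share its reads. Aldoc, the brain aldolase, rose by 1.42 (SE 0.24, adjusted p = 0.000576) in WT and 0.91 (SE 0.29, adjusted p = 0.0222) in p27KO. In p27KO this call was lost without p27KO DIFF replicate 1 (0.99, adjusted p = 0.0509), p27KO DIFF replicate 2 (0.84, 0.0886) or p27KO PRO replicate 2 (0.65, 0.142), and without a filter (0.85, 0.105). Cbs, which starts the conversion of homocysteine to cysteine, rose by 0.70 (SE 0.22, adjusted p = 0.0169) in WT, where the call was lost without WT PRO replicate 2 (adjusted p = 0.061) or WT PRO replicate 3 (0.0609), and had 0.03 (SE 0.26) in p27KO. Dio2, the deiodinase that activates thyroid hormone, had low levels, with 0.78 (SE 0.33, adjusted p = 0.0617) in WT and 0.79 (SE 0.40) in p27KO, and passed in WT with the replicate numbers as a block within genotype (0.81, SE 0.26, adjusted p = 0.0264).

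Widely used astrocyte markers were among those that did not pass. Aldh1l1, a folate enzyme that labels astrocytes across the brain, was at 194.3, 195.9 and 83.5 CPM in WT neurospheres and at 135.7, 500.0 and 312.0 CPM at 2 + 1 DIV, and at 204.4 and 165.2, then 421.5 and 528.0 CPM in p27KO. S100b, a calcium-binding protein, was at 6.05, 19.7 and 31.5 CPM and then 14.5, 8.87 and 13.8 CPM in WT, and at 19.8 and 9.89, then 4.56 and 9.04 CPM in p27KO. The stages of both genes overlapped in WT and not in p27KO. Aldh1l1 had log2 fold changes of 1.00 (SE 0.47, adjusted p = 0.0895) and 1.34 (SE 0.58, adjusted p = 0.078), and S100b of -0.64 (SE 0.54, adjusted p = 0.32) and -1.15 (SE 0.68, adjusted p = 0.18). In p27KO, Aldh1l1 passed by DESeq2 (1.36, adjusted p = 0.0439), with only the groups compared (1.37, 0.000486) and without WT DIFF replicate 1 (1.37, 0.0217) or 2 (1.34, 0.049). Aldh1l1 shares exon sequence with the annotated genes Gm45901 on the same strand and Gm15756 on the other.

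For these genes, WT replicate 1 went against the other WT replicates. Counts of same-numbered WT libraries deviated together (correlations of 0.248, 0.301 and 0.396), and the numbers were therefore taken to pair the WT stages. The main test did not use these pairs. With the numbers as a block within genotype, 32 members rose and 3 fell in WT, with Sparcl1, Fabp7 and Dio2 added. Within numbers, the change in Aldh1l1 on the log2(CPM + 0.5) scale was -0.52 in pair 1 and 1.35 and 1.89 in pairs 2 and 3, and that in S100b was 1.20 in pair 1 and -1.11 and -1.16 in the others. Without WT DIFF replicate 1, Aldh1l1 passed in WT at 1.39 (SE 0.36, adjusted p = 0.011) and Slc6a11 at -0.53 (SE 0.16, adjusted p = 0.0187). Without WT PRO replicate 1, S100b passed at -1.06 (SE 0.38, adjusted p = 0.0385). Sparcl1 (hevin), a secreted protein that promotes synapse formation, differed most between the WT replicates. It was at 1.09, 56.5 and 42.2 CPM in neurospheres and 24.3, 179.2 and 156.9 CPM at 2 + 1 DIV, and at 19.5 and 8.90, then 52.2 and 40.5 CPM in p27KO. It was lowest in replicate 1 at both WT stages and higher at 2 + 1 DIV in each WT pair, by 3.96, 1.66 and 1.88. Without the pairing it had 1.84 (SE 1.04, adjusted p = 0.148) in WT, and with the replicate numbers as a block within genotype 2.24 (SE 0.48, adjusted p = 0.0124). In p27KO it had 1.68 (SE 1.31, adjusted p = 0.302), and 1.72 (SE 0.38, adjusted p = 0.017) with only the groups compared.

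**Figure D4:**
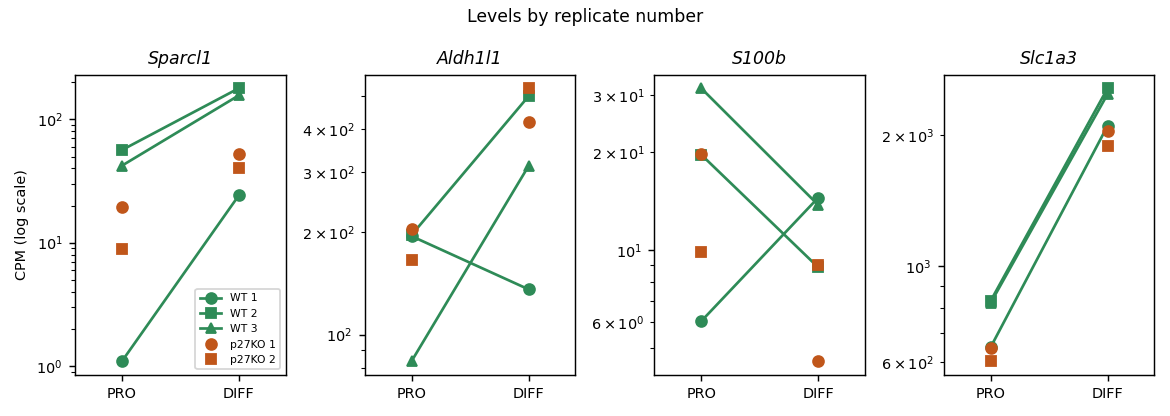
Levels of Sparcl1, Aldh1l1, S100b and Slc1a3 (CPM, log scale) in neurospheres (PRO) and at 2 + 1 DIV (DIFF), with lines that join WT libraries of the same replicate number; the p27KO libraries are points without lines. Sparcl1 is higher at DIFF in each WT pair but lowest in replicate 1, Aldh1l1 and S100b have 1 WT line that runs against the other two, and the Slc1a3 lines run nearly parallel.

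Genes that are known to act upstream of astrocyte genes were read from a separate list of 21 transcription factors, receptors and signalling genes, all of which were tested. In WT, 15 rose, 2 fell and 4 did not pass, and the counts in p27KO were the same. Across all genes tested, 33.5% rose and 33.9% fell in WT, and 27.5% rose and 30.2% fell in p27KO. The median log2 fold change was 0.95 in WT and 1.01 in p27KO, against -0.00 and -0.03 for all genes. The NFI factors, which act on glial genes during development, rose, with 0.95 (SE 0.08) for Nfia, 0.53 (SE 0.07) for Nfib and 1.54 (SE 0.13) for Nfix in WT. Il6st, the shared gp130 receptor subunit of the cytokines that induce astrocytes, rose by 2.49 (SE 0.10) in WT and 2.35 (SE 0.13) in p27KO, while Stat3, which acts below it, had 0.10 (SE 0.08) and -0.00 (SE 0.10) and did not pass. The Notch target genes moved in opposite directions, with Hes5 at 2.88 (SE 0.29) and Hes1 at -2.02 (SE 0.16) in WT. Sox9, a factor that NSCs and astrocytes share, did not pass at -0.10 (SE 0.12). By edgeR, 0 of the 21 differed between the genotypes at 2 + 1 DIV, with 3 at an unadjusted p under 0.05 (Nfia, Nfib and Id3, which DESeq2 called), where 14.8% of all genes tested had such a p. In neurospheres and for the difference between the changes, 0 passed by either tool, with 1 at an unadjusted p under 0.05 in each (Nfia and Id3). Of all genes tested, 4.69% and 4.31% had such a p.

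Of 11 genes that rise in reactive astrocytes after injury or inflammation, only 5 passed the filter on low counts, and Lcn2 had 0 counts in all libraries. In WT, S1pr3 (3.12, SE 0.37), Cp (1.88, SE 0.09) and Osmr (0.75, SE 0.30, adjusted p = 0.0497) rose, Cd44 (-1.34, SE 0.22) fell and Serpina3n (-0.47, SE 0.51) did not pass, and p27KO had the same counts. In WT, DESeq2 did not call Osmr. Markers of other cell types moved as well, where 33.5% of all genes tested rose and 33.9% fell in WT. The 6 microglial markers summed to at most 0.58 CPM in any library. Of the other lists, Foxj1, the factor for motile cilia in ependymal cells, rose by 2.44 (SE 0.15) in WT, while 4 of 6 ependymal markers did not pass the filter. The neuroblast gene Dcx rose by 4.61 (SE 0.90), among 2 of 6 tested neuronal markers that rose, and the 7 neuronal markers summed to 1230 to 1502 CPM in WT neurospheres and 1481 to 1723 CPM at 2 + 1 DIV, mostly from Map2. The 8 oligodendroglial markers summed to 150.4 to 247.1 and 168.9 to 286.2 CPM at these stages, with 2 of 4 tested markers up and 1 down. Of the 5 endothelial markers, the 1 tested, Flt1, fell by 3.71 on the log2 scale (SE 0.77), and of the 6 mural and fibroblast markers the 1 tested, the smooth muscle actin gene Acta2, rose by 4.50 (SE 0.52). Their part in the change of the members was not tested.

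Whether the loss of p27 goes with another course of these genes was asked from the difference between the changes. No member passed (0 of 40 by edgeR, 0 at an unadjusted p under 0.05 and 0 by DESeq2). Across all genes tested, 0.389% had a positive difference (p27KO change minus WT change) after adjustment. An unadjusted p under 0.05 in either direction was found for 4.31%. The fitted differences ranged from -0.68 (Cbs) to 0.56 (Aqp4), with a median of -0.15 against -0.01 for all genes. The 95% interval lay within 1 log2 unit on either side of 0 for 23 of the 40 members. Slc4a4 had the narrowest interval (0.03, from -0.24 to 0.30) and Sparcl1 the widest (-0.16, from -3.93 to 3.60). For Gfap the difference was -0.38, with an interval from -1.90 to 1.13, so that a change in either direction by a factor of more than 2 was within it. Across the 40 members, the WT and p27KO changes had a Pearson correlation of 0.989 and a Spearman correlation of 0.986, and across all genes tested of 0.952 and 0.955, where genes are not independent replicates.

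At 2 + 1 DIV itself, 0 of 40 members differed between p27KO and WT by edgeR's test after adjustment, where 1.91% of all genes were higher and 0.124% lower in p27KO. At an unadjusted p under 0.05, 1 member was higher and 4 were lower, a share no larger than the 14.8% of all genes tested with such a p in either direction, so that these 5 are given as values of single genes. Dbi was the higher one, at 1438 and 1483 CPM in p27KO and 1047, 1097 and 1220 CPM in WT. Its log2 difference was 0.39 (SE 0.10, adjusted p = 0.114), and it was 0.39 (SE 0.10, adjusted p = 0.684) in neurospheres too, without overlap of the genotypes at either stage. The lower ones were Apoe at -0.58 (SE 0.18, adjusted p = 0.164), Mlc1 at -0.56 (SE 0.17, adjusted p = 0.164), Cst3 at -0.48 (SE 0.17, adjusted p = 0.23) and Ndrg2 at -0.38 (SE 0.16, adjusted p = 0.298). Both p27KO libraries were below all 3 WT libraries for each of these 4 genes. In neurospheres their differences were -0.39 (SE 0.17) for Mlc1, -0.33 (SE 0.16) for Ndrg2, -0.30 (SE 0.18) for Cst3 and -0.13 (SE 0.18) for Apoe. None of these passed, and of the 4 only Apoe had genotypes that overlapped there. At 2 + 1 DIV, DESeq2 called Dbi higher (0.41, adjusted p = 0.00517) and Apoe (-0.56, adjusted p = 0.0334) and Mlc1 (-0.54, adjusted p = 0.0342) lower. Over all alternatives, the adjusted p ranged from 0.00517 to 0.479 for Dbi, from 0.0334 to 0.615 for Apoe, from 0.0342 to 0.56 for Mlc1, from 0.0384 to 0.676 for Cst3 and from 0.0553 to 0.734 for Ndrg2.

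The groups did not overlap for 4 members that were higher and 9 that were lower in p27KO at 2 + 1 DIV, and 17.0% and 20.4% of all genes did so. The higher members were Aqp4, Slc4a4, Vim and Dbi, and the lower ones Slc1a3, Apoe, Mlc1, Ndrg2, Mt1, Mt2, Cst3, Plpp3 and Ppp1r3c. Fitted differences were below 0 for 27 of 40 members (67.5%) and for 52.7% of all genes tested, with medians of -0.16 and -0.01. Gfap and Aqp4 pointed the other way, at 0.57 (95% interval -0.07 to 1.21) and 0.73 (95% interval -0.06 to 1.51), and did not pass. In neurospheres, 0 members passed by edgeR or DESeq2, and 0.0156% of all genes were higher in p27KO. At an unadjusted p under 0.05, 2 members were higher and 1 lower, and 4.69% of all genes tested had such a p in either direction. The interval of the genotype difference lay within 1 log2 unit of 0 for 31 of the 40 members at each stage.

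**Figure D5:**
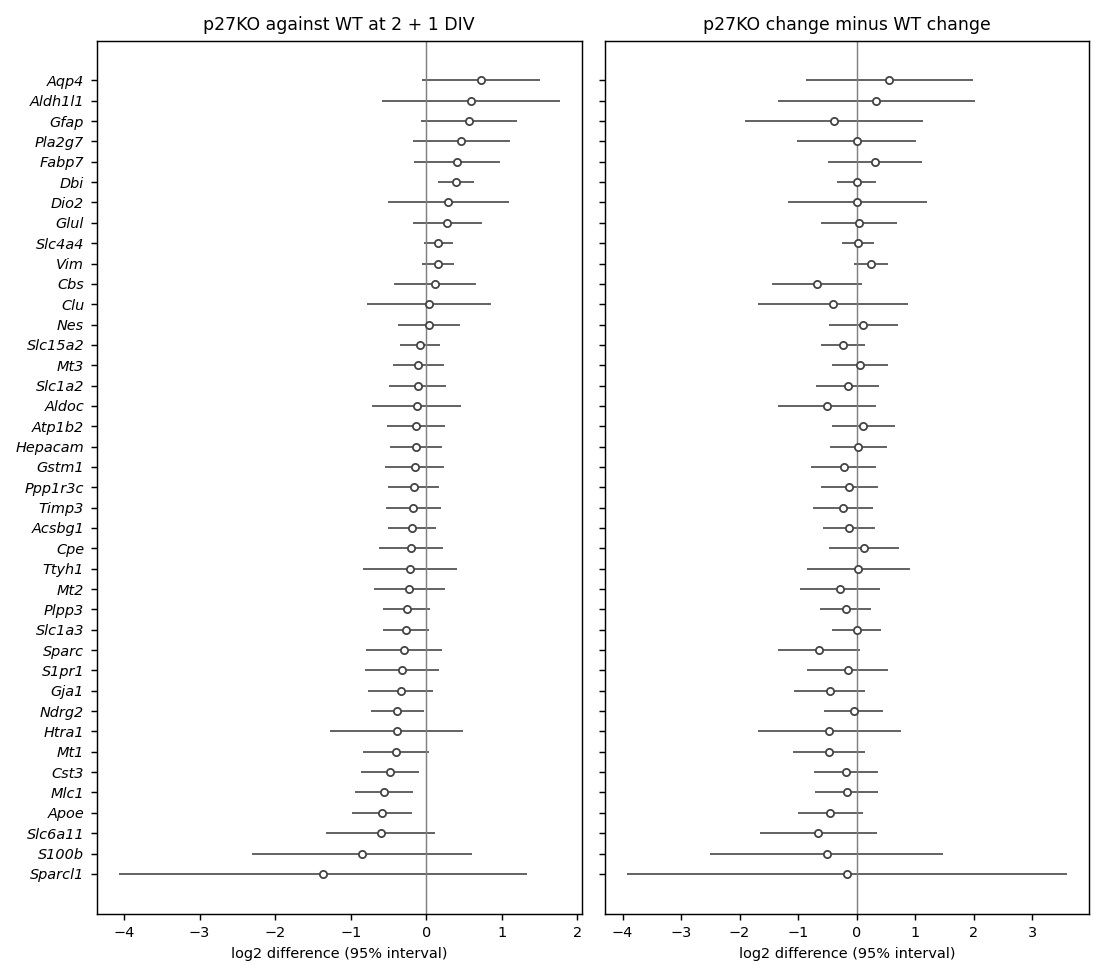
Log2 difference between p27KO and WT at 2 + 1 DIV (left) and difference between the p27KO and WT stage changes (right) for the 40 members tested, with 95% intervals and ordered by the left values. The intervals of Dbi, Apoe, Mlc1, Cst3 and Ndrg2 leave out 0 on the left without passing after adjustment, and every interval on the right includes 0.

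A list of cycling genes moved with the genotype in the same libraries. Its 8 genes, such as Mki67 and Top2a, mark dividing cells. All 8 fell from neurospheres to 2 + 1 DIV in both genotypes, and all 8 were higher in p27KO at 2 + 1 DIV. Across all genes tested, 33.9% fell in WT, 30.2% fell in p27KO and 1.91% were higher in p27KO at 2 + 1 DIV. Their summed level was 157.1 to 295.1 CPM in the WT differentiating libraries and 738.7 to 854.5 CPM in those labelled p27KO. The change differed between the genotypes for 4 of the 8, with a smaller fall in p27KO. Mki67 had -3.13 (SE 0.18) in WT and -1.48 (SE 0.21) in p27KO, a difference of 1.65 (SE 0.27, adjusted p = 0.0392). Of all genes tested, 0.389% had a positive difference (p27KO change minus WT change) after adjustment. Whether the share of cycling cells moves the level of any member was not tested.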

How the data were processed

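RNA-seq counts of 10 libraries were used. According to the study's methods and the labels, the authors made cDNA with a whole-transcriptome amplification kit, trimmed the reads, aligned them with STAR and ran RSEM (GRCm38). The values that the authors deposited are the estimated counts from RSEM per gene, rounded to whole numbers and not normalized. The strand setting is not given in the sources used here, so that reads of overlapping genes may not be separated. Such overlaps, and close relatives such as Mt1 and Mt2, can move counts between genes.

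A gene was dropped where 4 or more of the 10 libraries had under 1 CPM, which left 12859 genes. TMM scaling and a robust quasi-likelihood fit of 4 groups were done in edgeR 4.0.16 (limma 3.58.1, R 4.3.3), on all genes, and the members were then read out. CPM values are counts scaled to a library total of 1000000, without TMM factors. SE is an approximate standard error, the absolute log2 fold change divided by the square root of the F statistic of the quasi-likelihood test. The 95% intervals were built from this SE. It is unreliable where the fitted change is very small. For the neuronal marker Snap25, the difference between the changes was -0.0004 with an SE of 1.92. The SEs of its stage changes were 0.44 in WT and 0.54 in p27KO. Counting error matters only for low genes such as Gfap in neurospheres. Otherwise the spread between the 2 or 3 libraries of a group sets the precision. The fit estimated this spread jointly over the 4 groups and moderated it across genes. A p-value for p27KO thus also depends on the WT libraries. The p-values measure only spread between libraries. Replicates were distinct libraries, with a chi-square per gene of 14.8 to 64.5 between their counts, where sampling alone gives about 1.

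Members, roles and lists were chosen with earlier results of these data known. Per-library values are given for the defining markers, the metallothioneins and the 5 members with the largest change in each direction past the threshold, and others by ranges and examples. Symbols, exon lengths and positions come from the GENCODE M21 annotation, and promoters from RefSeq. Deviations from the group means correlated at 0.248 to 0.396 between PRO and DIFF libraries of WT with the same number, which is why WT numbers were treated as pairs, though not in the main fit. Between other WT libraries they correlated at -0.222 to -0.0874. Deviations from a group mean sum to 0, so that these negative values are not separate evidence for the pairing. Neither labels nor methods say what a number marks. Same-numbered p27KO libraries correlated at -0.138. With 2 libraries per group, crossed numbers necessarily gave the same size with the other sign, 0.138. The alternatives were DESeq2 1.42.0, its size factors in edgeR, thinned counts, other filters, a minimum fold change, only the groups compared, replicate blocks and each library left out. The steps were tested on simulated counts. Tables and plots were made with pandas 2.3.3 and matplotlib 3.10.9 in Python 3.11.15.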

Additional observations from a re-analysis of the deposited data

How the results depend on the processing

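The direction of the members' median was kept for both stage changes under all alternatives. When each library was left out in turn, 27 to 31 members rose and 3 to 4 fell in WT, and 25 to 29 rose and 1 to 4 fell in p27KO. The lowest count of falls, 1, came without p27KO DIFF replicate 2. The medians then ranged from 1.77 to 2.03 in WT, 1.55 to 1.71 in p27KO, -0.18 to -0.02 for the difference between the changes, -0.23 to -0.10 between genotypes at 2 + 1 DIV and -0.07 to 0.06 in neurospheres. With a minimum absolute log2 fold change of 1, 1 member fell in each genotype. With the replicate numbers as a block within genotype, 32 members rose and 3 fell in WT. In p27KO, 27 rose and 5 fell, with Slc6a11 and Htra1 added. These p27KO counts rest on a pairing by number, although same-numbered p27KO libraries did not deviate together. At 2 + 1 DIV, members lower in p27KO numbered 2 by DESeq2 (with 1 higher), 3 with the p27KO numbers of the block crossed (Gja1, Cst3 and Ttyh1, an alternative chosen after seeing the data), and 0 to 1 with a library left out, the 1 being Cst3 without WT DIFF replicate 3 (-0.64, adjusted p = 0.0466). The block as numbered called 0. The cause of these changes was not tested. Without the 2 members of highest count, the shares were 0.839% in WT neurospheres, 2.32% in WT differentiating cells, 0.832% in p27KO neurospheres and 2.12% in p27KO differentiating cells. The stage changes that changed sign were those of 3 members, none of which had passed in that comparison: Slc6a11 in WT (-0.53 to 0.095 with a library left out), Htra1 in WT (-0.38 to 0.27), and Cbs in p27KO (-0.24 to 0.35, with -0.0098 where genes of at least 1 CPM in at least 4 libraries were kept and -0.042 without a filter). Over the 5 comparisons and the alternatives other than the minimum fold change, 3469 of 3680 values of single members kept direction and side of the threshold, 20 lost the call, 44 gained it and 147 changed sign, of which 77 were differences between the changes, 16 and 45 genotype differences at 2 + 1 DIV and in neurospheres, and 0 past the threshold. The genotype difference of Sparcl1 at 2 + 1 DIV had an interval of 2.70 to either side, the widest of the members.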
